A study of Mus musculus with 18 samples.

Results

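The genes described here are 9 genes of the MHC class I pathway, which is the machinery that displays peptides from inside a cell to CD8+ T cells. They are Nlrc5 and Ciita, which encode transactivators of the MHC genes, B2m, which encodes the light chain shared by class I molecules, and 6 heavy-chain genes, H2-K1, H2-D1, H2-T23, H2-T22, H2-Q4 and H2-M3. They were chosen by name and matched by Ensembl identifier to the count table, and all 9 were found among its 43629 genes. Of these, 6 passed the filter on low counts and were tested (Nlrc5, B2m, H2-K1, H2-D1, H2-T23 and H2-T22). Ciita, H2-Q4 and H2-M3 did not pass, and their counts are given without a main test.

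A class I molecule is a heavy chain bound to β2-microglobulin and to a peptide. IFNγ signals through JAK kinases and induces the transcription factor IRF1. NLRC5 is itself induced by IFNγ, binds no DNA directly, and is brought to class I promoters by the RFX, CREB/ATF and NF-Y factors that occupy a conserved module called SXY. CIITA is the related activator of class II genes and uses the same module. Loss of class I expression is known as a route by which tumour cells escape CD8+ T cells.

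RNA was sequenced from AT3 cells, a mouse mammary carcinoma line that the study uses as a model of triple-negative breast cancer, so every library comes from 1 line and carries no deletion or transgene made for the experiment. Cells were given DMSO vehicle, 250 nM A-241 or 1000 nM A-485 for 1 h. Murine IFNγ (IFNy in the labels) or its vehicle was then added for 2 h, so that all cells were collected at 3 h. A-241 and A-485 inhibit the catalytic activity of the acetyltransferases P300 and CBP, which acetylate histones at enhancers and promoters. The 6 groups are thus DMSO, A-241, A-485, IFNγ, A-241+IFNγ and A-485+IFNγ, with 3 libraries each. The sample labels call the triplicates biological and the series design calls them technical, so n is a number of libraries and p-values measure only the spread between them.

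The libraries were made with QuantSeq, which reads the 3′ end of mRNA, and held 3417167 to 7856830 counts each. DMSO replicate 3 and IFNγ replicate 2 stood apart from the other libraries of their groups. In them the gene Gm42418 took 20.1% and 23.05% of all counts, against 7.11% to 16.2% in the other 16 libraries. Across tested genes, their root mean square difference in log2 CPM from the rest of the group was 1.10 and 1.13, while the other 16 had 0.34 to 0.77. The changes on which the results turn are therefore also given without them. Both libraries were also the lowest of all 18 for H2-K1 and H2-D1, and the lowest of their groups for B2m. Leaving them out thus narrows the spread of these genes by construction. Of the markers of other cells, the 8 leukocyte markers summed to 0.632 to 19.5 CPM (counts scaled to library depth) per library, with Itgax and Adgre1 at 0 counts in every library, against 965 to 1774 CPM for the 7 epithelial markers. The epithelial sum was lower with A-241 in every library (982 to 1030 CPM, against 1520 to 1770 with DMSO, and 965 to 1110 with A-241+IFNγ, against 1320 to 1500 with IFNγ) and also with A-485 (1070 to 1200 CPM without and 1030 to 1180 with IFNγ). The sum does not describe each marker. Krt14 had the largest fall (mean 713 CPM with DMSO and 253 with A-241), while Epcam did not fall (69.1 and 69.9). Krt19 had at most 1 count in any library. The 2 mesenchymal markers, Vim and Fn1, summed to 400 to 448 CPM with A-241 against 645 to 708 with DMSO, to 429 to 503 with A-241+IFNγ against 647 to 752 with IFNγ, and to 524 to 556 with A-485 and 573 to 663 with A-485+IFNγ. The endothelial pair summed to 0.435 to 4.12 CPM, with Cdh5 at 0 counts. The highest leukocyte sum was in an A-485 library and the lowest in a DMSO library, and the part of any of these marker levels in the results was not tested. In the bulk RNA of a culture, fewer cells that express a gene and less RNA per cell cannot be told apart.

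Promoter windows of 7 of the 9 genes were found in the RefSeq table (build GRCm38.p6), and the 250 bases before the transcript start were searched on both strands. H2-K1 has 2 windows there and the first listed was used, so its distances hold for that start. Nlrc5 and Ciita have no entry. B2m and H2-K1 are shown in full because one is the member that rose with IFNγ beside Nlrc5 and the other is a classical heavy chain that carries all the kinds of match found in H2-D1. Capitals mark every match, which can be to an IRF core (GAAANNGAA), a second IRF-like pattern (GAANNGAAA), a GAS element (TTCNNNGAA), an X2-like element (TGACG, the letters that CREB/ATF factors bind), the CCAAT box of NF-Y or a κB-like element (GGGNNTTCC). The second IRF-like pattern is not the other strand of the IRF core, which reads TTCNNTTTC. B2m is at chr2:122147437-122147686 on the plus strand and H2-K1 at chr17:34000348-34000597 on the minus strand, both written 5′ to 3′.
B2m: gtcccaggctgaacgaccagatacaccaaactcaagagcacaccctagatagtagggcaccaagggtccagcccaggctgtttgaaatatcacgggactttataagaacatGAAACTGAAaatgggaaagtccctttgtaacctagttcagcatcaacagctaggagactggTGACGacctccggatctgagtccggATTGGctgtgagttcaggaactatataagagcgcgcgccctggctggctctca
H2-K1: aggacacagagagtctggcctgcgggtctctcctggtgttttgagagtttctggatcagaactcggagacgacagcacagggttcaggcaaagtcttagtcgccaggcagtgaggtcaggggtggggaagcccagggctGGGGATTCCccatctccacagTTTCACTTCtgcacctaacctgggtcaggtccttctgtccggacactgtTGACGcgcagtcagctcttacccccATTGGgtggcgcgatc

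The IRF core GAAANNGAA was present in 3 of the 7 windows (B2m, H2-T23 and H2-T22), against 7.13% of all 32851 windows. The different pattern GAANNGAAA, added after the sequences had been seen, was present in the other 4 (H2-K1, H2-D1, H2-Q4 and H2-M3), against 6.31% of all windows. The share of all windows with either pattern was not counted. The IRF stretch is printed for every member with a window, because IRF1 is among the factors that IFNγ induces. In H2-K1, H2-D1 and H2-Q4 the GAANNGAAA match lies just after a κB-like match, which 4.98% of all windows hold.
H2-K1, κB-like to IRF, chr17:34000429-34000458, minus strand: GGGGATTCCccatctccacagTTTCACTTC
H2-D1, κB-like to IRF, chr17:35262923-35262952, plus strand: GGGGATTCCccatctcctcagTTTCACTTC
H2-Q4, κB-like to IRF, chr17:35379444-35379472, plus strand: GGGATTTCCcatctccccagTTTCACTTC
B2m, IRF with flanks, chr2:122147538-122147567, plus strand: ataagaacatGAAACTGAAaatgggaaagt
H2-T23, IRF with flanks, chr17:36032805-36032834, minus strand: tcctactgctTTCTCTTTCataaagacaca
H2-T22, IRF with flanks, chr17:36042913-36042942, minus strand: TTGGcttagtTTCACTTTCgaatccccaac
H2-M3, IRF with flanks, chr17:37270123-37270152, plus strand: tcctctgaggTTTCACTTCtctgtaactct

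The X2-like element was present in 6 of the 7 windows (17.8% of all windows), CCAAT in 7 of 7 (33.8%) and the GAS element in H2-M3 alone (7.02%). An X2-like match followed by CCAAT on either strand within 40 bases was present in 5 of 7 windows, against 1.7% of all windows. In 4 of them TGACG was followed by ATTGG, the other strand of CCAAT, at a distance of exactly 25 bases from start to start. That spacing, chosen after the sequences had been seen, was present in 18 of all 32851 windows, or 0.0548%. These 4 stretches are shown because X2 and the CCAAT box, also called Y, are parts of the SXY module.
B2m, X2-like to ATTGG, chr2:122147609-122147638, plus strand: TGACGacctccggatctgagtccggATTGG
H2-K1, X2-like to ATTGG, chr17:34000359-34000388, minus strand: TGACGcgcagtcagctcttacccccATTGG
H2-D1, X2-like to ATTGG, chr17:35262993-35263022, plus strand: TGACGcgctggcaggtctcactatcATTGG
H2-M3, X2-like to ATTGG, chr17:37270188-37270217, plus strand: TGACGcttctCCAATtcccattctaATTGG
A match is a description of letters in these windows and does not show that a factor binds there.

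**Figure D1:**
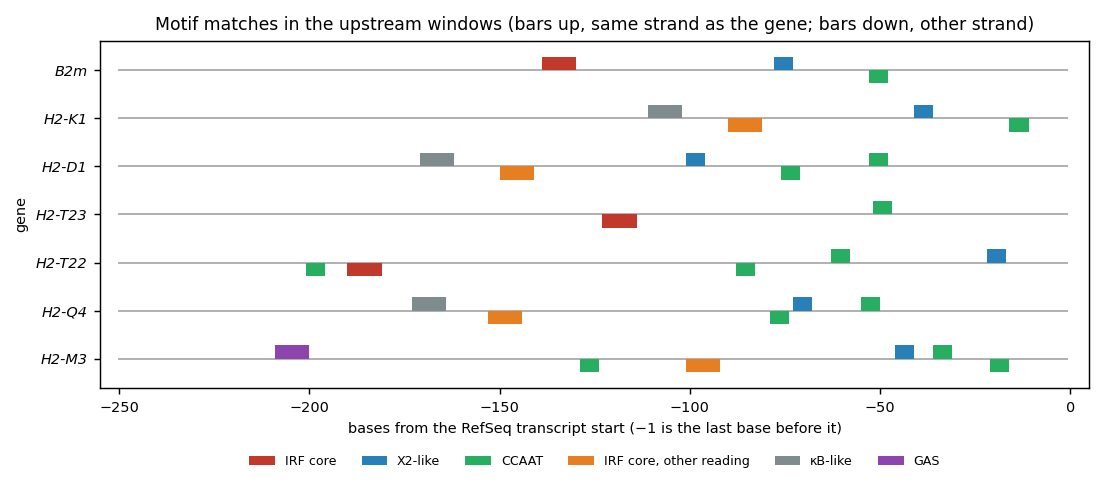
Motif matches in the 250 bases before the RefSeq transcript start of 7 genes (for H2-K1 the first of 2 listed). The distance from the start in bases is on the horizontal axis, with 1 gene per line. Bars above a line are on the strand of the gene and bars below it on the other strand. B2m, H2-T23 and H2-T22 carry the IRF core GAAANNGAA. The other 4 carry the different pattern GAANNGAAA, labelled as the other reading and added after the sequences had been seen. B2m, H2-K1, H2-D1 and H2-M3 carry an X2-like match 25 bases before a CCAAT on the other strand.

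Nlrc5 (ENSMUSG00000074151, chr8:94434356-94527272, plus strand of GRCm38) was nearly silent without IFNγ. It was counted 2, 1 and 0 times in the DMSO libraries, 1, 1 and 2 times with A-241, and 1, 1 and 3 times with A-485. With IFNγ alone it reached 66, 11 and 33 counts, which correspond to 8.11, 3.28 and 5.77 CPM after TMM scaling. In A-241+IFNγ libraries it had 2, 5 and 5 counts (0.435, 0.815 and 1.03 CPM), and in A-485+IFNγ libraries 9, 9 and 14 counts (1.72, 1.83 and 2.66 CPM). Each IFNγ library was above each A-485+IFNγ library, and each of those was above each A-241+IFNγ library. In CPM the A-241+IFNγ libraries lay above those of DMSO and A-241 (at most 0.422 and 0.421) and overlapped with A-485, where the highest was 0.697, and the 3 groups without IFNγ overlapped with each other. The lowest A-241+IFNγ library held 2 counts, as did the highest DMSO and A-241 libraries, so their order rests on the scaling to depth alone. A count of 0 allows up to 3 counts, or 0.368 to 1.03 CPM depending on the library. Levels in the groups without IFNγ, and in the lowest A-241+IFNγ library, therefore lie at the limit of what was detectable at this depth.

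Summed over the libraries of a group and scaled to depth, Nlrc5 was 29.8 times as high with IFNγ as with DMSO (110 and 3 counts, exact 95% counting interval 9.92 to 147). IFNγ alone was 8.29 times as high as A-241+IFNγ (interval 4.56 to 16.5) and 3.07 times as high as A-485+IFNγ (2.06 to 4.71). These intervals cover counting error only, because they come from counts summed over a group and leave out the spread between its libraries. The reads also carry no molecular identifiers, so repeated reads of the same molecule cannot be told apart and the intervals may be too narrow. In the edgeR fit Nlrc5 rose with IFNγ by 4.63 on the log2 scale (SE 0.58, adjusted p = 0.000132). This fitted value depends on the small prior count of the fit, because the DMSO group holds only 3 counts. With A-241 under IFNγ, Nlrc5 fell by 2.90 (SE 0.46, 95% interval −3.88 to −1.92, adjusted p = 0.0007). The change with A-485 under IFNγ was −1.50 (SE 0.40, interval −2.35 to −0.64) and did not pass the threshold of 0.01 (adjusted p = 0.0773).

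The response of Nlrc5 to IFNγ after each inhibitor was smaller in the estimate. It was 1.40 after A-241 (SE 0.71, interval −0.11 to 2.90, adjusted p = 1.00 by edgeR), with 12 counts against 4 and a count ratio of 2.79 (0.846 to 11.9). After A-485 it was 2.56 (SE 0.59, adjusted p = 0.0444), with 32 counts against 5 and a ratio of 6.32 (2.44 to 20.8). The difference between the responses was tested as an interaction. For A-241 it was −3.24 (SE 1.10, unadjusted p = 0.00979, adjusted p = 0.916, edgeR), and for A-485 −2.08 (SE 1.00, adjusted p = 1.00). Neither interaction passed after adjustment over all genes. In the absence of IFNγ no fold is given for Nlrc5, because all 3 groups were close to the limit of 3 counts per library.

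Without DMSO replicate 3 and IFNγ replicate 2 both calls of Nlrc5 were kept. The rise with IFNγ was 4.56 (adjusted p = 2.62e-05) and the change with A-241 was −3.16 (adjusted p = 2.07e-05). The change with A-485 was then −1.75 and passed the threshold (adjusted p = 0.00448), as did the response after A-485 (2.58, adjusted p = 0.00949). The interactions were then −3.14 (A-241, adjusted p = 0.390) and −1.98 (A-485, adjusted p = 0.398). Over all other settings, with each library left out in turn included, the adjusted p of the change with A-485 lay between 0.000731 and 0.304, and that of the response after A-485 between 0.00141 and 0.301.

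The tested genes whose level followed that of Nlrc5 most closely over the 18 libraries were Cxcl9 (Pearson r = 0.954), Tgtp1 (0.954), Samhd1 (0.952), Tgtp2 (0.951) and Ifi47 (0.95). Cxcl9 encodes a chemokine for T cells, and Tgtp1, Tgtp2 and Ifi47 encode GTPases of the interferon-induced IRG family. All 18 points share 6 treatments, so these values describe a common division into treatments. Without the 2 libraries the values of r were 0.949 to 0.954, but only Ifi47 remained among the 5 closest.

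Ciita (ENSMUSG00000022504, chr16:10480059-10528418, plus strand) was detected almost only with IFNγ alone. It had 8, 7 and 30 counts in the IFNγ libraries (0.983, 2.09 and 5.25 CPM), 0, 2 and 0 with DMSO, and 1, 0 and 0 with A-485. It had 0, 1 and 0 counts with A-241+IFNγ, and none in the A-241 and A-485+IFNγ libraries. The 3 IFNγ libraries were above the other 15, and 1 of them held 30 of the 45 counts. The group total was 18.3 times that of DMSO (45 and 2 counts, exact 95% interval 4.77 to 155) and 40.7 times that of A-241+IFNγ (45 and 1 counts, 6.94 to 1644). Against A-485+IFNγ it was at least 13.4-fold higher, taking 3 counts over the group as the limit of 0. When the 2 libraries were left out, these values were 15.2 (3.93 to 129.97), 42.7 (7.22 to 1731) and at least 14.1.

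Ciita did not pass the count filter, so it was tested only in fits without that filter. With no filter in edgeR, its change was 4.09 with IFNγ (adjusted p = 0.053), −4.96 with A-241 under IFNγ (adjusted p = 0.0083) and −6.81 with A-485 (adjusted p = 0.0107). DESeq2 gave adjusted p values of 0.331 and 0.0465 for the former pair and none for A-485. Ciita shares 329 exon bases with the neighbouring gene Dexi, and reads on these were counted for both. The class II genes that CIITA controls were at low counts in all libraries. Of 10 class II genes only H2-DMb1, a chaperone of peptide loading, passed the filter, with a change of −0.41 with IFNγ (SE 0.32, adjusted p = 0.851). H2-Aa, H2-Ab1, H2-Eb1 and Cd74 reached at most 5 counts in any library, and H2-Eb2 had none.

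**Figure D2:**
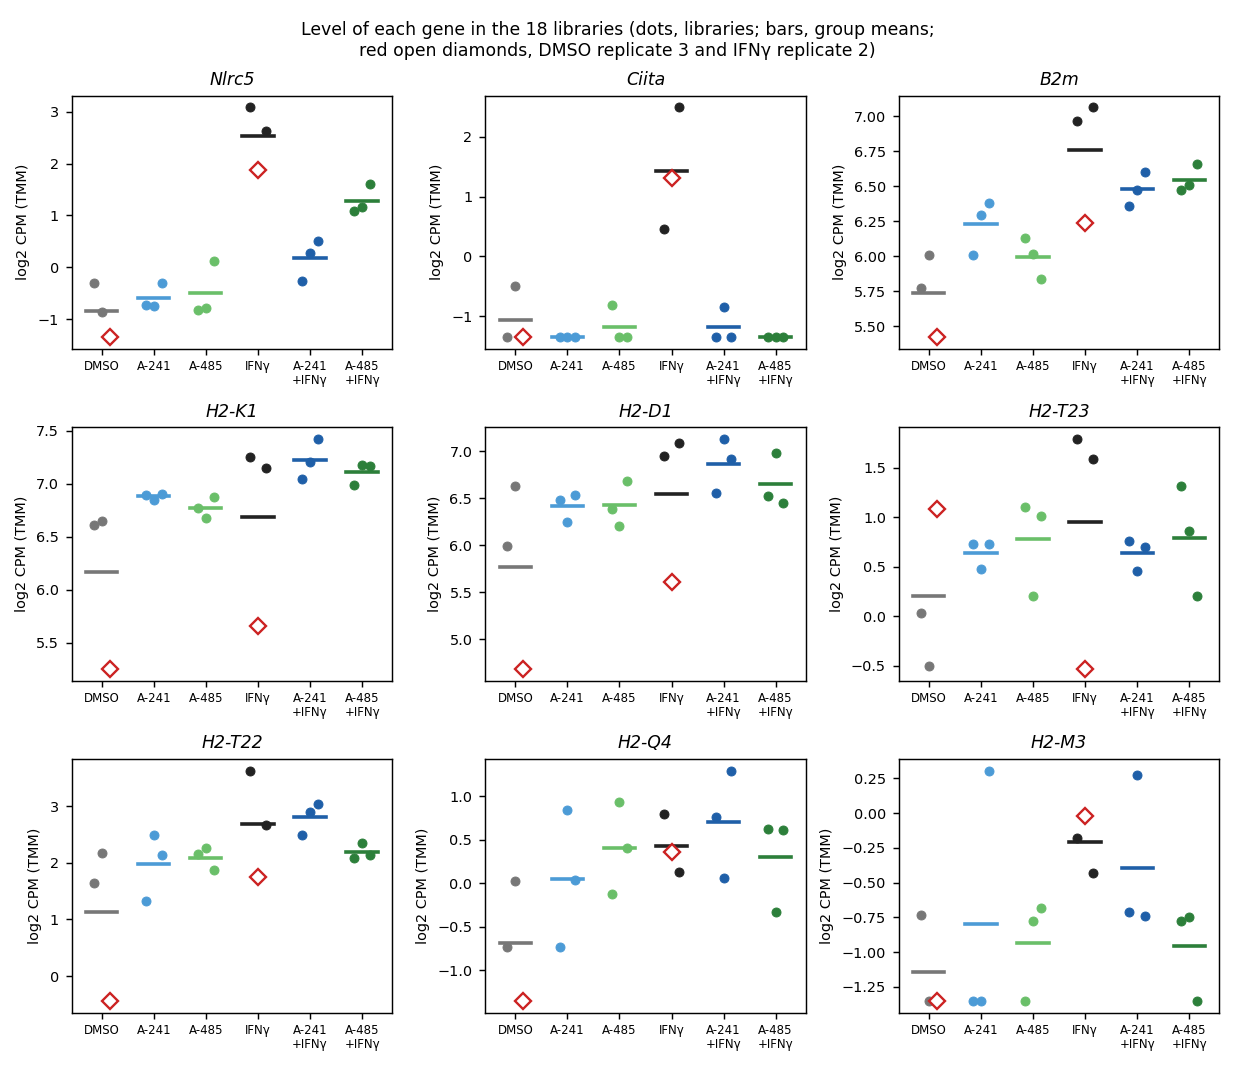
Level of each of the 9 genes in log2 CPM (TMM scaling, prior count 2) on the vertical axis, with the 6 groups on the horizontal axis. Dots are libraries, bars are group means, and red open diamonds are DMSO replicate 3 and IFNγ replicate 2. Nlrc5 and Ciita were highest in the 3 IFNγ libraries, and the red diamonds are the lowest points for H2-K1 and H2-D1.

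B2m (ENSMUSG00000060802, chr2:122147686-122153083, plus strand) was well expressed in all libraries and was the only member besides Nlrc5 to be called. Its levels were 54.4, 63.9 and 42.5 CPM with DMSO, 63.9, 78.1 and 83.0 CPM with A-241, and 69.5, 64.5 and 56.9 CPM with A-485. With IFNγ alone they were 125, 75.1 and 133 CPM. In the inhibitor groups with IFNγ they were 81.8, 88.2 and 96.7 CPM (A-241+IFNγ) and 88.2, 90.6 and 101 CPM (A-485+IFNγ). All IFNγ libraries lay above all DMSO libraries, but IFNγ replicate 2, the lowest, was below every library of both groups with an inhibitor and IFNγ. Group means ran from IFNγ (log2 CPM 6.76 ± 0.45, SD, n = 3) through A-485+IFNγ (6.55 ± 0.10), A-241+IFNγ (6.48 ± 0.12), A-241 (6.23 ± 0.20) and A-485 (6.0 ± 0.14) to DMSO (5.74 ± 0.29). Every neighbouring pair in that order had overlapping ranges.

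B2m rose 2.07-fold with IFNγ (log2 1.05, SE 0.21, 95% interval 0.61 to 1.48, adjusted p = 0.00823 by edgeR). Of 12 other settings 6 kept this call. It was lost with limma-voom (adjusted p = 0.0118), total counts (0.0649), no filter (0.0150), at least 10 counts in every library (0.0155), the replicate block (0.0249) and only the groups compared (0.626), while its log2 value was 1.01 to 1.18 over these 12. The call also rests on single libraries, since it was lost when any 1 of DMSO replicates 1, 2 and 3 or IFNγ replicates 1 and 3 was left out (adjusted p 0.0115 to 0.0623, log2 0.90 to 1.20). It was kept without IFNγ replicate 2. Under IFNγ the changes with A-241 and A-485 were −0.32 (interval −0.75 to 0.10) and −0.26 (−0.68 to 0.17), with adjusted p values of 0.407 and 0.576. After A-241 the response to IFNγ was 0.24 (interval −0.18 to 0.67), and after A-485 it was 0.55 (0.12 to 0.98). The interaction was −0.80 for A-241 (SE 0.29, unadjusted p = 0.0129, adjusted p = 0.990) and −0.50 for A-485 (SE 0.29, adjusted p = 1.00).

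Without the 2 libraries that stand apart, the spread of B2m was smaller. The response to IFNγ was 1.11 (SE 0.15, adjusted p = 9.75e-05). Both inhibitors then gave larger changes under IFNγ, of −0.54 with A-241 (interval −0.83 to −0.26, adjusted p = 0.00936) and −0.48 with A-485 (−0.76 to −0.20, adjusted p = 0.0351). The interactions were −0.85 (A-241, adjusted p = 0.0774) and −0.55 (A-485, adjusted p = 0.301). Over the 12 other settings the adjusted p of the A-241 change lay between 0.00936 and 0.699, and this was the only setting in which it passed. The levels closest to that of B2m over the 18 libraries were those of Trafd1 (r = 0.922), Nampt (0.921) and Myd88 (0.912), the last of which encodes an adaptor of Toll-like receptors. Without the 2 libraries Trafd1 remained among the 3 closest.

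H2-K1 (ENSMUSG00000061232, chr17:33996017-34000347, minus strand) and H2-D1 (ENSMUSG00000073411, chr17:35262730-35267499, plus strand) encode the classical heavy chains, which present peptides to most CD8+ T cells. They held 94.2% to 98.3% of the counts of the 6 heavy-chain genes in each library. H2-K1 was at 97.2, 99.9 and 37.7 CPM with DMSO, 118, 115 and 119 CPM with A-241, and 108, 102 and 117 CPM with A-485. It was at 152, 50.0 and 141 CPM with IFNγ, 131, 147 and 171 CPM with A-241+IFNγ, and 127, 145 and 143 CPM with A-485+IFNγ. The lowest values with DMSO and with IFNγ are those of the 2 libraries that stand apart, and they made these groups overlap. All A-241+IFNγ libraries were above all A-241 libraries, and all A-485+IFNγ libraries above all A-485 libraries.

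No change of H2-K1 passed the threshold. The response to IFNγ was 0.55 (SE 0.34, 95% interval −0.18 to 1.28, adjusted p = 0.776 by edgeR) after DMSO, 0.35 after A-241 (interval −0.37 to 1.08) and 0.34 after A-485 (−0.38 to 1.07). Under IFNγ the change was 0.38 with A-241 (−0.34 to 1.11) and 0.27 with A-485 (−0.46 to 0.99). Without the 2 libraries the SE of the response to IFNγ was 0.14 and its value 0.56 (interval 0.27 to 0.85, adjusted p = 0.0238). In that fit the change under IFNγ was 0.02 with A-241 (−0.24 to 0.28) and −0.10 with A-485 (−0.36 to 0.16). The sign of the A-485 value thus turned with these libraries.

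H2-D1 was at 63.2, 98.5 and 25.2 CPM with DMSO, 89.0, 75.5 and 92.1 CPM with A-241, and 83.3, 73.3 and 102 CPM with A-485. In the groups with IFNγ it was at 123, 48.6 and 136 CPM (IFNγ), 94.0, 140 and 121 CPM (A-241+IFNγ) and 91.5, 126 and 87.2 CPM (A-485+IFNγ). The IFNγ libraries overlapped with those of DMSO, and the A-485+IFNγ libraries with those of A-485, whereas the A-241+IFNγ libraries were all above those of A-241. The response to IFNγ was 0.71 (SE 0.39, interval −0.12 to 1.54, adjusted p = 0.692) after DMSO, 0.47 (−0.36 to 1.29) after A-241 and 0.23 (−0.59 to 1.06) after A-485. Under IFNγ the change was 0.20 with A-241 (−0.62 to 1.02) and −0.02 with A-485 (−0.84 to 0.80). Without the 2 libraries these were −0.13 (−0.56 to 0.29) and −0.36 (−0.78 to 0.06), and the response to IFNγ was 0.66 (0.19 to 1.13, adjusted p = 0.123).

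H2-K1 and H2-D1 moved together over the libraries (r = 0.929, 18 libraries, and 0.775 without the 2). Their correlation with Nlrc5 was 0.334 and 0.425, and 0.696 and 0.609 without the 2 libraries, whereas B2m and Nlrc5 had r = 0.802 and 0.845. These values describe libraries that share treatments and depth. The genes closest to H2-K1 were Tm2d2 (0.968), Cd81 (0.965) and Tor1aip2 (0.965), and those closest to H2-D1 were Eif4a1 (0.963), Cstb (0.949) and Timm23 (0.941). Over 16 libraries these values were 0.802 to 0.836 for H2-K1 and 0.814 to 0.897 for H2-D1, so this likeness rests in part on them.

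H2-T23, H2-T22, H2-Q4 and H2-M3 are non-classical heavy-chain genes. H2-T23 encodes Qa-1, a ligand of the NKG2A receptor on natural killer cells and T cells, and H2-M3 presents peptides that begin with formyl-methionine. H2-T22 encodes a ligand of γδ T cells. All had few counts in most libraries. H2-T22 (ENSMUSG00000056116, chr17:36037128-36042747, minus strand) had 13, 26 and 1 counts with DMSO, 10, 26 and 19 in A-241 libraries, and 23, 23 and 14 in A-485 libraries. It had 97, 10 and 34 counts with IFNγ, 24, 43 and 38 with A-241+IFNγ, and 20, 23 and 21 with A-485+IFNγ. The IFNγ libraries were spread from 2.98 to 11.9 CPM and overlapped with all other groups. Its response to IFNγ was 1.45 (SE 0.51, interval 0.37 to 2.52, adjusted p = 0.286, edgeR). Under IFNγ its change was −0.12 with A-241 (−1.09 to 0.86) and −0.80 with A-485 (−1.81 to 0.21). In the fit of 16 libraries the response was 1.37 (interval 0.60 to 2.14, adjusted p = 0.0442). The changes were then −0.45 with A-241 (−1.09 to 0.20, adjusted p = 0.375) and −1.14 with A-485 (−1.81 to −0.46, adjusted p = 0.0372). Of the sequence in the last 500 bases of its transcripts, 39.0% of 75-base stretches also occur in another gene, chiefly H2-T10. It also shares 1003 exon bases with A930015D03Rik, so its counts are uncertain.

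H2-T23 (ENSMUSG00000067212, chr17:36029773-36032855, minus strand) had 3, 2 and 5 counts with DMSO, 6, 5 and 6 in A-241 libraries, and 10, 4 and 7 in A-485 libraries. With IFNγ it had 25, 1 and 15 counts, against 6, 6 and 6 with A-241+IFNγ and 11, 7 and 4 with A-485+IFNγ. The single count is in IFNγ replicate 2, and the other IFNγ libraries were the highest of all 18 at 3.07 and 2.62 CPM. Its response to IFNγ was 1.50 (SE 0.64, interval 0.15 to 2.86, adjusted p = 0.491, edgeR), and 2.59 without the 2 libraries (SE 0.56, adjusted p = 0.0104). In the latter fit its changes under IFNγ were −1.30 (A-241, adjusted p = 0.0493) and −1.004 (A-485, adjusted p = 0.132). The responses after A-241 and A-485 were −0.01 (−1.36 to 1.33) and 0.05 (−1.23 to 1.33). H2-T23 did not pass the filter in the libraries without IFNγ alone. Its rise with IFNγ and its fall from that level are therefore not independent of its place among the tested genes. Of its 75-base stretches 19.95% occur in other genes.

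H2-Q4 (ENSMUSG00000035929, chr17:35379617-35385290, plus strand) did not pass the filter. It had 1, 4 and 0 counts with DMSO, 1, 7 and 3 in A-241 libraries, 3, 8 and 4 in A-485 libraries, 11, 3 and 4 with IFNγ, 6, 4 and 10 with A-241+IFNγ, and 6, 2 and 6 with A-485+IFNγ. The DMSO libraries (0 to 0.632 CPM) were below those of IFNγ and of A-241+IFNγ, and the other groups overlapped with them. The ratio of IFNγ to DMSO was 2.92 (18 and 5 counts, exact 95% interval 1.05 to 10.07), and 2.40 without the 2 libraries, with an interval of 0.829 to 8.44 that includes 1. H2-M3 (ENSMUSG00000016206, chr17:37270220-37274484, plus strand) had 0 to 5 counts in every library. Its total was 8 with IFNγ, 7 with A-241+IFNγ, 4 with A-241, 2 each with A-485 and A-485+IFNγ, and 1 with DMSO. The ratio of IFNγ to DMSO was 6.49, with an exact interval of 0.871 to 288 that includes 1, and 4.80 (0.582 to 221) without the 2 libraries. No difference of H2-M3 was thus detectable at this depth. H2-Q4 shares 496 exon bases with Gm11131 and 17.4% of its 75-base stretches with other genes.

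**Figure D3:**
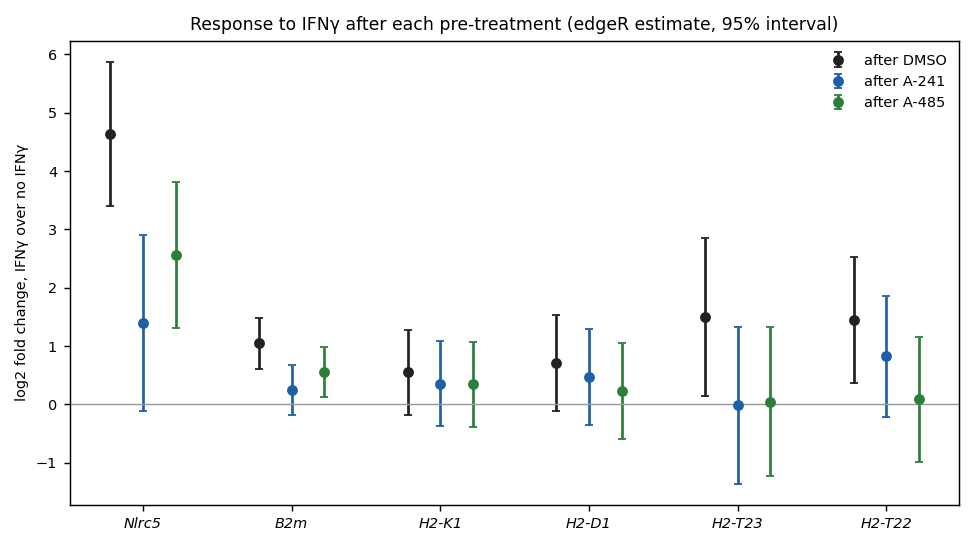
Response to IFNγ of the 6 tested genes (horizontal axis) as log2 fold change (vertical axis), after DMSO, A-241 or A-485. Points are edgeR estimates from all 18 libraries and bars are 95% intervals. The response of Nlrc5 was 4.63 after DMSO, 1.40 after A-241 and 2.56 after A-485. The 3 intervals of H2-K1 overlap, as do those of H2-D1, but they are wide and do not show that the responses are alike.

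Counted over the list, IFNγ against DMSO gave 2 of 6 tested members called, both higher (Nlrc5 and B2m), while 1.3% of all 11964 genes were called. The median change of the 6 was 1.25, beside −0.0028 over all genes. Nlrc5 and H2-T23 did not pass the filter in the libraries without IFNγ alone. Nlrc5 entered through the IFNγ libraries in which it is high, so neither its rise with IFNγ nor its fall from that level is independent of its place among the tested genes. The same limit holds for H2-T23, which entered through its level in libraries with IFNγ. The medians of the 6 include both genes. A-241+IFNγ against IFNγ gave 1 of 6 (Nlrc5, lower), with 4.09% of all genes called and medians of −0.22 and −0.02. A-485+IFNγ against IFNγ gave 0 of 6, with 0.552% of all genes called and medians of −0.43 and −0.03. By edgeR 1 member, Nlrc5, had an unadjusted p under 0.05 there, and DESeq2 and limma-voom also called 0. Voom with sample quality weights called 1 member, beside 520 of all 11964 genes.

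After A-241, IFNγ gave 0 of 6 called (0.192% of all genes), with 0 members at an unadjusted p under 0.05 and a median of 0.41. After A-485 it gave 0 of 6 (0.802% of all genes), with 2 at an unadjusted p under 0.05 and a median of 0.29. DESeq2 and limma-voom called 0 members in both, and voom with quality weights called 1 after A-485, beside 292 of all 11964 genes. The interaction gave 0 of 6 for A-241 (0.0334% of all genes, 2 at an unadjusted p under 0.05) and 0 of 6 for A-485 (0% of all genes, 0 at an unadjusted p under 0.05), and DESeq2, limma-voom and voom with quality weights called 0 in both. All 6 interaction values were negative with each inhibitor, with medians of −0.71 and −0.93, beside −0.020 and −0.015 over all genes. The share of all genes with a negative value was not counted. Nlrc5 and H2-T23 were tested only because of their level in libraries with IFNγ, which favours a negative value. Both interactions use the same DMSO and IFNγ libraries, which include the 2 that stand apart, so the 2 tallies are not independent. Without the 2 libraries that stand apart all 6 were negative again with each inhibitor, with medians of −0.69 and −0.92. Of these 0 were called (3 at an unadjusted p under 0.05 for each inhibitor).

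**Figure D4:**
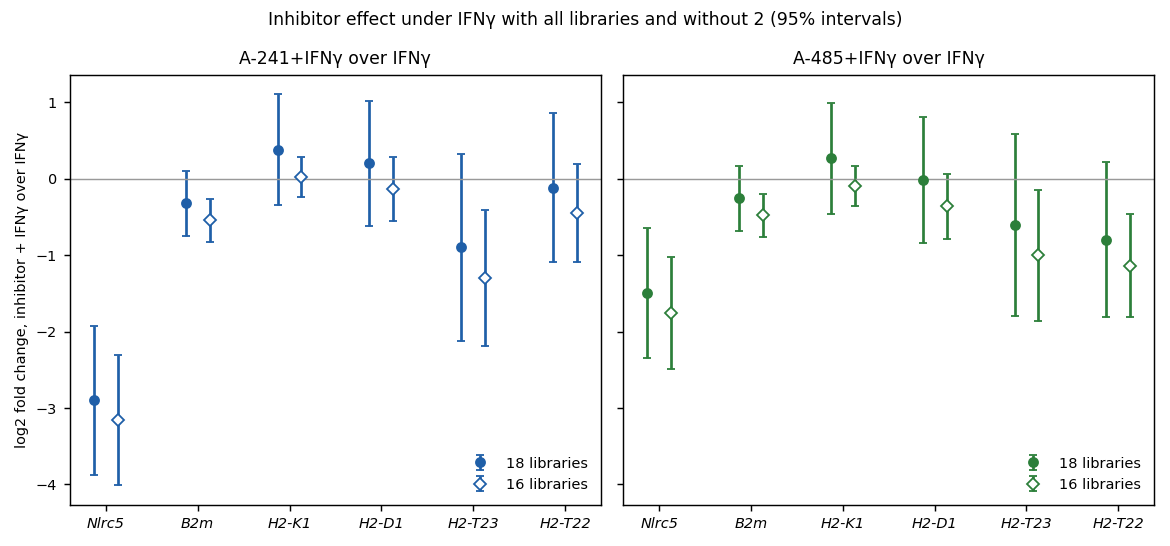
Change with A-241 (left) and A-485 (right) under IFNγ, as log2 fold change over IFNγ alone (vertical axis), for the 6 tested genes (horizontal axis). Filled dots are from all 18 libraries, open diamonds from the 16 left without DMSO replicate 3 and IFNγ replicate 2, and bars are 95% intervals. Nlrc5 is lowest in both panels (−2.90 and −1.50 with all libraries), and H2-K1 lies near 0 with 16 libraries.

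At steady state, without IFNγ, A-241 against DMSO gave 0 of 6 members called, beside 4.35% of all genes, and A-485 against DMSO gave 0 of 6, beside 0.66%. By edgeR 1 member (B2m) had an unadjusted p under 0.05 with A-241 against 0 for A-485, and the other tools called 0. Over the 6, the medians were 0.49 and 0.51, and both comparisons use the same DMSO libraries. These medians include Nlrc5, for which no fold is given without IFNγ, and H2-T23, which had 10 counts over the DMSO group. In the fit of 16 libraries the medians were 0.15 and 0.13. H2-T23 was 0.62 (interval −0.88 to 2.11) with A-241 and 0.85 (−0.61 to 2.30) with A-485 over all libraries. With 16 libraries its values by edgeR were 1.29 (−0.03 to 2.61, adjusted p = 0.191) and 1.53 (0.25 to 2.81, adjusted p = 0.193). These rest on DMSO libraries with 3 and 2 counts of the gene. With all libraries B2m was 0.48 higher in the estimate with A-241 (interval 0.05 to 0.91, adjusted p = 0.166). H2-K1 was 0.58 (−0.16 to 1.31) with A-241 and 0.47 (−0.26 to 1.20) with A-485. With 16 libraries the H2-K1 values were 0.21 (−0.05 to 0.48) and 0.11 (−0.15 to 0.38), and H2-D1, at 0.44 and 0.46 with all libraries, was 0.04 and 0.06. These steady-state values therefore depended on the libraries left out, of which DMSO replicate 3 is in the comparison. The value of B2m without them was 0.30 (0.01 to 0.60) after A-241 and 0.07 (−0.22 to 0.37) after A-485.

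The inhibitors were given at different doses, 250 nM A-241 and 1000 nM A-485, so a difference between them is one between these treatments. A-241+IFNγ against A-485+IFNγ gave 0 of 6 members called, beside 0.518% of all genes, and A-241 against A-485 gave 0 of 6, beside 0.368%. By edgeR 1 member had an unadjusted p under 0.05 in the former and 0 in the latter, and DESeq2, limma-voom and voom with quality weights called 0 in both. The value for Nlrc5 was −1.41 in the former (SE 0.51, interval −2.48 to −0.33, adjusted p = 0.452). The other 5 lay between −0.29 and 0.68, and the interval for B2m was −0.50 to 0.36 and that for H2-K1 −0.61 to 0.84. These intervals do not show that the treatments act alike on these genes.

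The genes that make and load the peptides were examined as lists chosen beside the members. With IFNγ, 3 of 8 genes of peptide transport and loading rose, beside 1.3% of all genes called. They were Tap2 (4.28, SE 0.83, adjusted p = 0.00763) and Tap1 (3.22, SE 0.26, adjusted p = 8.11e-07), which together form the peptide transporter, and Tapbpl (1.46, SE 0.22, adjusted p = 0.00089), which edits the peptides bound. The median of the 8 was 1.02. With A-241 under IFNγ, 1 of 8 fell, Tap1 by 1.41 (SE 0.24, adjusted p = 0.00116), and with A-485 0 of 8 passed, beside 4.09% and 0.552% of all genes. The medians were −0.52 and −0.43.

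Of 5 genes of the immunoproteasome and its activator, which cut the peptides, 2 rose with IFNγ (1.3% of all genes called). These were Psmb9 (3.72, SE 0.37, adjusted p = 9.05e-06) and Psmb10 (1.42, SE 0.23, adjusted p = 0.00164). None of the 5 passed with either inhibitor under IFNγ, where the medians were −0.83 and −0.33. Of 7 genes of IFNγ signalling, 2 rose with IFNγ (1.3% of all genes called), namely Socs1 (6.51, SE 1.09, adjusted p = 0.00214), a feedback inhibitor of JAK kinases, and Irf1 (5.05, SE 0.31, adjusted p = 3.52e-08). With either inhibitor under IFNγ 0 of the 7 were called. Irf1 was not called with either, at −0.87 (SE 0.26, adjusted p = 0.0547) and −0.35 (SE 0.26, adjusted p = 0.549). Tap2, Socs1 and Psmb8, a further immunoproteasome subunit, did not pass the filter in the libraries without IFNγ alone, so like Nlrc5 they were tested only because of their level in groups with IFNγ.

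When the 2 libraries that stand apart were left out, more list genes were called, and 2.03% of all genes with IFNγ. The loading genes were again Tap1, Tap2 and Tapbpl, while Psmb8 (3.00, adjusted p = 0.00237) joined the immunoproteasome genes and Irf2 (1.01, adjusted p = 0.00533) those of signalling. With A-241 under IFNγ (7.82% of all genes called) Tap1, Psmb9 and Irf1 fell, and Socs1 fell by 1.91 (adjusted p = 8.91e-05). With A-485 (2.68% of all genes called) Tap2, Psmb9 and Socs1 fell, with Psmb9 at −1.44 (adjusted p = 0.000539).

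Of the 8 genes for factors at the SXY module, 7 passed the filter and none was called in these 3 comparisons by edgeR, though Rfxap was called higher with A-241 under IFNγ without the 2 libraries. Their medians were 0.14 with IFNγ, −0.33 with A-241 and −0.16 with A-485 under IFNγ. The largest value with IFNγ was that of Nfyb, a subunit of NF-Y, at 0.73 (SE 0.17, adjusted p = 0.0296). Of 19 other class I and class I-like genes only Cd1d1, which encodes a lipid-presenting molecule, passed the filter, with 0 to 19 counts per library and a change of −0.63 with IFNγ (SE 0.78, adjusted p = 0.935). H2-T3, H2-M1 and H2-M2 had no count in any library.

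**Figure D5:**
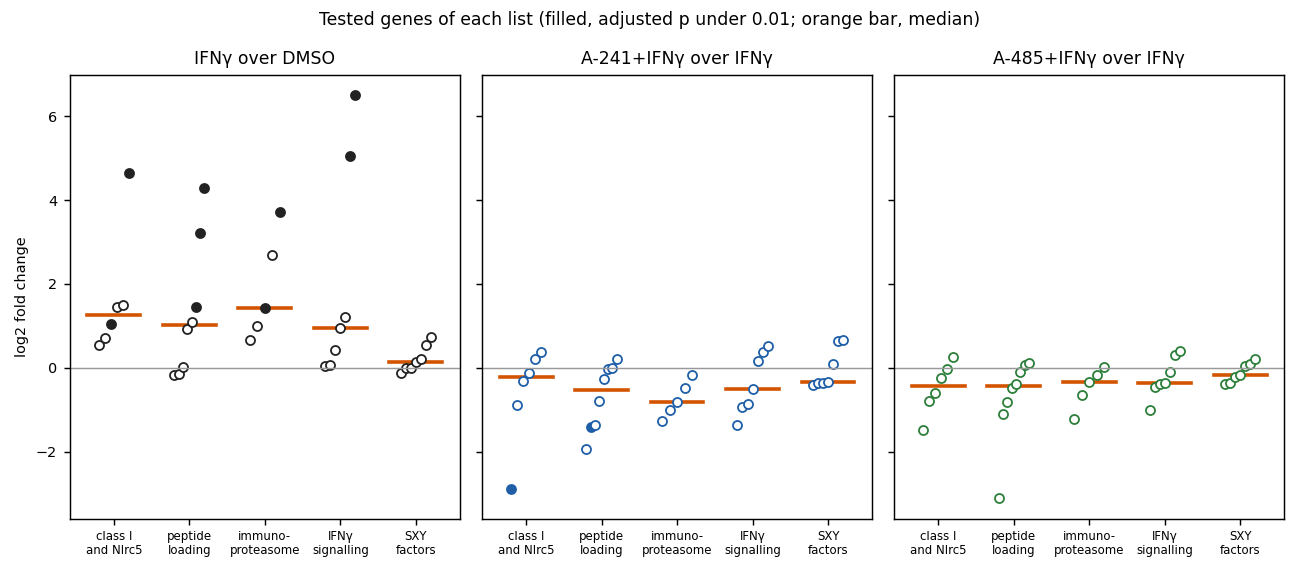
Log2 fold change (vertical axis) of the tested genes of each list (horizontal axis) for IFNγ over DMSO, A-241+IFNγ over IFNγ and A-485+IFNγ over IFNγ. Each dot is a gene, filled where its adjusted p was under 0.01, and orange bars are medians. In the left panel 2 of 6 class I and Nlrc5 genes, 3 of 8 loading genes, 2 of 5 immunoproteasome genes and 2 of 7 signalling genes are filled, and 0 of 7 SXY factors.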

How the data were processed

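The authors demultiplexed reads with bcl2fastq 2.17.1.14, checked them with FastQC 0.11.5, trimmed them with cutadapt 1.7, aligned them to mm10 (GRCm38) with HISAT2 2.1.0 and counted them on exons with featureCounts, reads over several genes being counted for each. No strand option is named and the annotation release is not given in the sources used here, so genes with shared exons share reads. The deposited file holds raw counts per gene, with 1 column per library, and all columns were used.

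Identifiers were joined to GENCODE vM21 symbols (42462 of 43629 matched). Counts were analysed with edgeR 4.0.16 in R 4.3.3. Low genes were removed by filterByExpr, grouping libraries by condition (minimum count 10), TMM factors were computed, and 1 quasi-likelihood model (glmQLFit, glmQLFTest) was fitted to all 18 libraries. Benjamini-Hochberg adjustment covered the 11964 genes that remained, and a gene was called when its adjusted p was under 0.01. Levels are TMM-scaled CPM, or log2 CPM with a prior count of 2. SE is the fold change divided by the root of the F statistic. Count ratios use group sums with exact conditional intervals (95%, scipy 1.17.1), and 3 counts over a group stand for 0. Depth was 3417167 to 7856830 counts per library. For same-group pairs of libraries the chi-square of their counts per degree of freedom was 2.09 to 125, where sampling noise alone gives about 1. No p-value was computed for it.

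The 9 members, the gene lists and the tests were chosen with earlier results of these data known. From the IFNγ signalling list 1 gene was left out and is not reported here. The text names all members, from each list the genes called (at most 6) and those with no count, and the 5 genes most like Nlrc5 and 3 most like B2m, H2-K1 and H2-D1 by Pearson r of log2 CPM. Other list genes (H2-Aa, H2-Ab1, H2-Eb1, Cd74, H2-DMb1, Cd1d1, Nfyb, Irf1 where not called) were named after their values were seen. Alternatives were DESeq2 1.42.0, limma-voom (limma 3.58.1) with and without sample quality weights, total-count, upper-quartile and DESeq2 factors, Gm42418 left out, no filter, at least 10 counts in every library, a replicate block, fits of only the groups compared, other thresholds, the libraries that stand apart left out, and each library left out in turn. Count ratios and lists without the libraries that stand apart were added after seeing the data. The fit was tested on simulated data. Promoters are RefSeq windows on GRCm38.p6.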

Additional observations from a re-analysis of the deposited data

How the results depend on the processing

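Of the member and comparison values recomputed under other settings, 1106 stayed on the same side of the threshold with the same sign, 40 that were not called in either fit changed sign, 5 passed only under the other setting, 13 no longer passed and 0 called values reversed. For IFNγ against DMSO (2 members called), 1 was called with limma-voom, total counts, no filter or the replicate block, and 0 with at least 10 counts in every library, which removes Nlrc5, or with only the groups compared. Over all 11964 genes the main fit called 156, limma-voom 147, total counts 143 and the replicate block 125. No filter called 151 of 22051 genes, at least 10 counts in every library 77 of 8783, and only the groups compared 19 of 11333. With each library left out in turn, 1 to 2 were called. For A-241+IFNγ against IFNγ (1 called), 2 were called with no filter, which adds Ciita, or with both libraries that stand apart left out, and 0 with at least 10 counts in every library or only the groups compared. Here the main fit called 489 of all 11964 genes, no filter 418 of 22051 and the fit without both libraries 949 of 12135. At least 10 counts in every library called 339 of 8783 genes, and only the groups compared 83 of 11304. For A-485+IFNγ against IFNγ (0 called), 1 was called with sample quality weights, with both libraries left out or at an unadjusted p under 0.01. There the main fit called 66 of all 11964 genes, quality weights 520 of 11964 and the fit without both libraries 325 of 12135. For the response to IFNγ after A-485 (0 called), 1 was called with quality weights, with both libraries left out, at an adjusted p under 0.05 or at an unadjusted p under 0.01, and the interaction for A-241 (0 called) gave 1 at an unadjusted p under 0.01. For that response the main fit called 96 of all 11964 genes, quality weights 292 of 11964 and the fit without both libraries 203 of 12135. Such counts are not given for the other thresholds or for single libraries left out. The cause of the changes between settings was not tested beyond the construction named. Nlrc5 kept its calls with each library left out in turn (log2 4.28 to 5.50 for IFNγ, −3.17 to −2.55 for A-241 under IFNγ). Its adjusted p was 0.0655 and 0.0293 with only the groups compared, its largest under the other settings in which it was tested.

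The replicate numbers were checked for pairing. Of 27 same-numbered pairs between groups compared, 6 had deviations correlated above 0.1 (r −0.80 to 0.37), and in 0 comparisons did all pairs pass, so the numbers were not taken to pair the libraries. With the replicate block B2m was 1.04 with IFNγ (adjusted p = 0.0249) and 1 member was called, and no other count of members called changed.

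Depth limits H2-T23, H2-Q4, H2-M3, Ciita and Nlrc5 without IFNγ, where most libraries had 10 counts or fewer. With Gm42418 left out of the fit, the number of members called changed in no comparison (2 for IFNγ against DMSO, 1 for A-241+IFNγ against IFNγ). Over all 12014 genes of that fit, 155 and 489 were called in these comparisons. Why DMSO replicate 3 and IFNγ replicate 2 stand apart was not tested.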
